A study of Mus with 6 samples.

Results

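The CC chemokines Ccl2, Ccl7, Ccl8, Ccl11, Ccl17 and Ccl22 and the chemokine receptor gene Ccr2 were followed in pancreatic tumors of obese and lean mice. They were taken by a fixed list of 10 Ensembl IDs, drawn up with earlier results of these data known. Rows for 7 of the 10 IDs, out of 15646 genes in the count table, were analysed; Ccl3, Ccl4 and Ccl5 were not analysed here. The obese group was 3 libraries of tumors in ob/ob mice, obese animals without working leptin, and the lean group was 3 libraries of tumors in wild-type (WT) mice. All tumors were KPC1199, a mouse line of pancreatic ductal adenocarcinoma (PDAC), implanted orthotopically, that is, into the pancreas itself. One line therefore stands for the cancer cells in both groups. The labels give no age, sex or strain background of the hosts, and no treatment. Libraries are called by the number in their titles, obese 1, 3 and 4 and lean 1, 2 and 3.

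Chemokines are small secreted proteins that guide leukocytes along concentration gradients, and CC chemokines are named for a pair of adjacent cysteines near their start. Ccl2 and its receptor Ccr2 form the best known axis for the exit of inflammatory monocytes from bone marrow and for their entry into inflamed tissue, adipose tissue in obesity and pancreatic tumors included. Ccl17 and Ccl22 act on another receptor, Ccr4, which is found on regulatory and type 2 helper T cells.

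RNA of Ccr2 and of the Ccr2 ligands Ccl2 and Ccl7 was 2.90 to 3.69 times as abundant in tumors of obese hosts as in those of lean hosts. Of the 6 genes abundant enough to be tested, these 3 rose, 0 fell, and Ccl8, Ccl17 and Ccl22 did not pass the threshold (edgeR quasi-likelihood test, Benjamini-Hochberg adjusted p under 0.05 over 14348 genes). The filter on scarce genes asked for about 10 counts in each of 3 libraries. Ccl2, Ccl7 and Ccl22 met this only with the obese libraries, whereas Ccl17 met it through the lean ones. Which genes were tested thus depended in part on where they were high. Over all genes tested, 10.3% were called higher and 10.6% were called lower in obese hosts. The median log2 fold change was 1.61 over the 6 genes, against 0.01 over all genes tested. Since 3 of the 6 passed the filter only with the obese libraries, these medians are not a matched comparison. At an unadjusted p under 0.05, 4 of the 6 genes were higher and 0 lower in edgeR. By that measure, 18.2% and 18.0% of all genes tested were higher and lower. At an adjusted p under 0.05, DESeq2 called 0 of 7 genes lower and limma-voom 0 of 6. Over all genes, they called 1556 of 15634 and 1539 of 14348 lower. The number of chemokine and receptor genes called in edgeR depended on single libraries. It was 1 without obese 1 (Ccl2), without obese 4 (Ccr2), without lean 2 (Ccl2) or without lean 3 (Ccl22). Those fits called 7.99% to 13.2% of all genes they tested. RNA of whole tumors cannot tell more cells that express a gene from more RNA of that gene per cell.

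**Figure D1:**
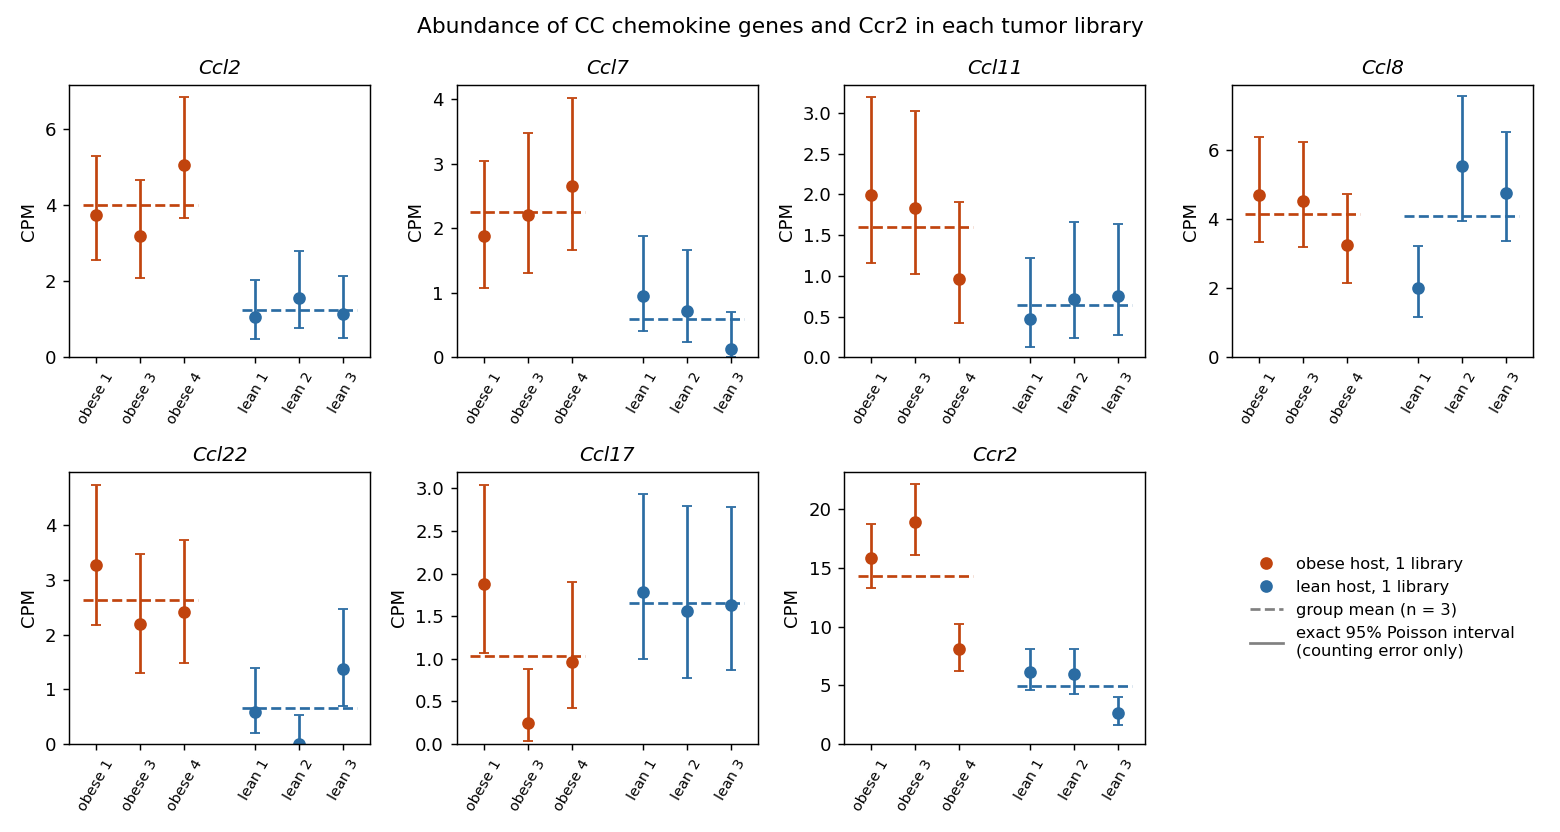
Abundance of each gene in CPM, that is, counts scaled to the effective size of the library, for the 3 obese and the 3 lean libraries; points are libraries, bars are exact 95% Poisson intervals of the counts and dashed lines are group means. Ccl2, Ccl7, Ccl11, Ccl22 and Ccr2 were higher in each obese library than in any lean one, whereas the groups overlapped for Ccl8 and Ccl17. Over all genes tested, which leave out Ccl11, 20.3% were higher and 20.0% lower in every obese library.

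The libraries held 7122533 to 8521244 counts, with no separation of the groups by total (two-sided exact permutation test, p = 0.9, where 0.1 is the smallest that 3 against 3 libraries allow). These chemokines were scarce at this depth: 5 of the 6 genes tested, all but Ccr2, lay in the fifth of tested genes with the lowest abundance, where 11.2% of genes were called in either direction. Standard errors (SE) of the fitted log2 fold changes had a median of 0.49 for the 6 genes, against 0.19 over all genes tested. In CPM, counts scaled to library size, 1 count corresponded to 0.117 to 0.142 CPM. Gene symbols could not be attached to the other IDs of the table, so markers of monocytes, macrophages, eosinophils, T cells, dendritic cells, fibroblasts, adipocytes, acinar cells and tumor epithelium were not analysed here, and the labelled tissue was not checked against them. Levels are not compared between genes, since no transcript lengths were used. Where counts of genes are set against each other below, they are shares of counts and not of molecules.

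Of the ligands, Ccl2 (ENSMUSG00000035385.5) is the principal monocyte attractant and acts on Ccr2. Its abundance was 3.75, 3.18 and 5.07 CPM in obese 1, 3 and 4, from 32, 26 and 42 counts, against 1.07, 1.56 and 1.13 CPM in lean 1, 2 and 3, from 9, 11 and 9 counts. Every obese library lay above every lean one. The fitted increase was 3.19-fold (95% interval 1.75 to 5.83), or 1.67 ± 0.39 (SE) in log2 terms (edgeR adjusted p = 0.0157). The call was lost without obese 4, the library with most Ccl2, at a log2 fold change of 1.47 (edgeR adjusted p = 0.0642), and without lean 3, at 1.60 (edgeR adjusted p = 0.0585).

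Ccl7 (ENSMUSG00000035373.2), a second monocyte attractant that acts on Ccr2, had 1.88, 2.20 and 2.65 CPM in obese 1, 3 and 4, against 0.950, 0.710 and 0.125 CPM in lean 1, 2 and 3. The groups did not overlap, but the lean values rest on 8, 5 and 1 counts. The fitted increase was 3.69-fold (95% interval 1.53 to 8.92), or 1.89 ± 0.58 (SE) in log2 terms (edgeR adjusted p = 0.041). This call held when lean 1 was left out, and without each of the other 5 libraries the adjusted p was 0.0646 to 0.121 (edgeR). It was also lost with no filter on scarce genes (edgeR adjusted p = 0.0643) and with DESeq2 (adjusted p = 0.0592), at similar fold changes. The direction was the same in all 15 alternatives, with log2 fold changes of 1.41 to 2.43.

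Ccl11 (ENSMUSG00000020676.2), or eotaxin, attracts eosinophils through the receptor Ccr3. It had 17, 15 and 8 counts in obese 1, 3 and 4, against 4, 5 and 6 counts in lean 1, 2 and 3, and so was removed by the filter on scarce genes and is not among the 6 genes tested. In CPM the values were 1.99, 1.84 and 0.965 in the obese and 0.475, 0.710 and 0.751 in the lean libraries. Each obese value exceeded each lean one, with obese 4 close to the lean libraries. Summed counts gave a ratio of obese to lean of 2.50 (95% counting interval 1.35 to 4.88), which leaves out the spread between libraries. Without the filter, the edgeR test gave a log2 fold change of 1.29 ± 0.61 (SE) and an adjusted p = 0.157, where 9.10% of all genes were called higher, so no difference was detectable for Ccl11 at this depth.

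Ccl8 (ENSMUSG00000009185.2), which in mice acts on the receptor Ccr8, showed no shift of the group means. Its abundance was 4.69, 4.53 and 3.26 CPM in obese 1, 3 and 4, against 2.02, 5.54 and 4.76 CPM in lean 1, 2 and 3. The groups overlapped, and lean 1 had the lowest value of all. Means were 4.16 ± 0.784 CPM in the obese and 4.10 ± 1.85 CPM in the lean group (SD, n = 3 each). The log2 fold change was 0.03, with a 95% interval of -0.83 to 0.89, that is, 0.562-fold to 1.85-fold (edgeR adjusted p = 0.967). Without lean 1 the log2 fold change was -0.31 (edgeR adjusted p = 0.549). The lean counts varied by 6.78 times the Poisson variance, against 1.23 times for the obese counts.

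The genes Ccl2, Ccl7, Ccl11 and Ccl8 lie in this order within 81.2 kb of chromosome 11 (RefSeq annotation of GRCm38.p6, the build named for the files). Ccl2 spans 82035577 to 82037452, Ccl7 82045712 to 82047525, Ccl11 82057832 to 82062955 and Ccl8 82115185 to 82116799. Only Ccl12, also a CC chemokine, and the gene model Gm38913 share that stretch, both between Ccl11 and Ccl8, and no RefSeq gene overlaps any of the 7 genes. Among the counts of these 4 neighbours, Ccl8 took 38.1%, 38.5% and 27.3% in obese 1, 3 and 4, against 44.7%, 65.0% and 70.4% in lean 1, 2 and 3. The share of Ccl2 was 30.5%, 27.1% and 42.4% in obese 1, 3 and 4, against 23.7%, 18.3% and 16.7% in lean 1, 2 and 3. The Ccl8 share was thus lower, and the Ccl2 share higher, in every obese library than in any lean one. The groups overlapped in the share of Ccl7, at 15.2% to 22.2% in the obese and 1.85% to 21.1% in the lean libraries, and of Ccl11, at 8.08% to 16.2% in the obese and 8.33% to 11.1% in the lean libraries. A share also moves with its neighbours, and the mean CPM of Ccl8 itself was nearly equal in both groups. The nearest libraries were close, obese 3 and lean 1 in the Ccl8 share and the same pair in the Ccl2 share, and the exact 95% interval for Ccl8 in lean 1 was 28.6% to 61.7%. The ratio of these genes does not depend on how libraries are scaled. It was looked at after the values were known and was not tested.

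**Figure D2:**
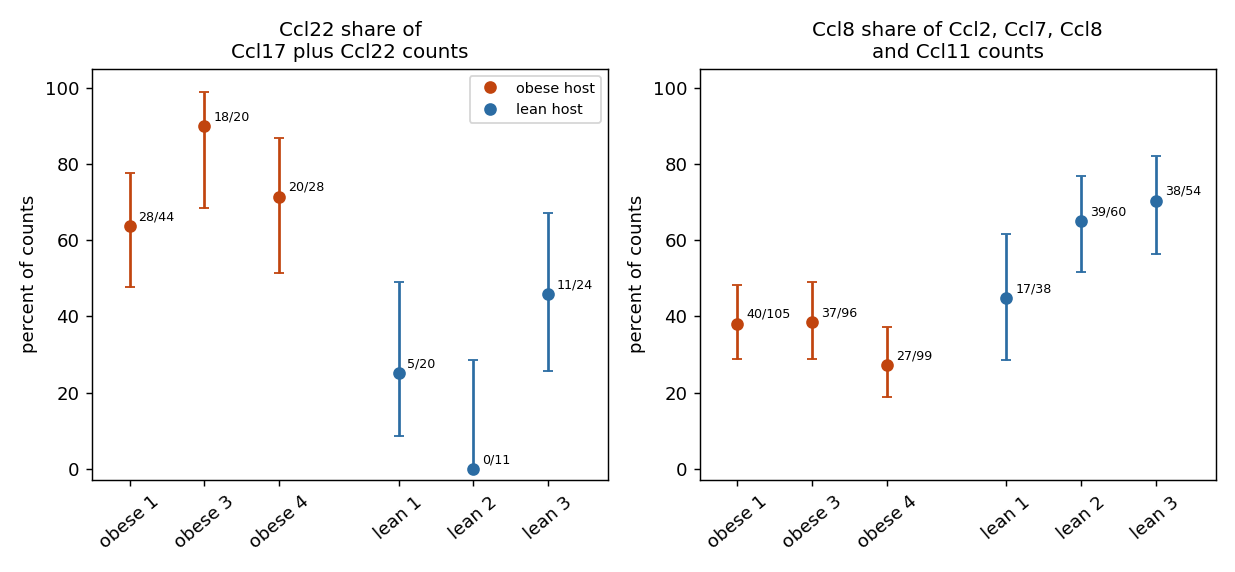
Share of counts, in percent, that Ccl22 took of Ccl17 plus Ccl22 (left) and that Ccl8 took of Ccl2, Ccl7, Ccl8 and Ccl11 (right) in each library, with counts beside the points and exact 95% binomial intervals, which cover counting error only. The Ccl22 share was 63.6% to 90.0% in obese and 0% to 45.8% in lean libraries, and the Ccl8 share was 27.3% to 38.5% in obese and 44.7% to 70.4% in lean libraries.

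The Ccr4 ligands Ccl22 and Ccl17 lie within 66.4 kb of chromosome 8, Ccl22 at 94745684 to 94751388 and Ccl17 at 94809380 to 94812038, with the chemokine gene Cx3cl1 among the genes between them. Ccl22 (ENSMUSG00000031779.3), known as a product of dendritic cells and macrophages, had 3.28, 2.20 and 2.41 CPM in obese 1, 3 and 4, against 0.594, 0 and 1.38 CPM in lean 1, 2 and 3. The obese libraries held 28, 18 and 20 counts and the lean libraries 5, 0 and 11, and a count of 0 in lean 2 allows up to 0.426 CPM at the level of 3 counts (0.524 CPM at the exact 95% Poisson limit). The groups did not overlap, yet the spread among the lean libraries was 5.28 times the Poisson variance. The fitted log2 fold change of 1.94 (SE 0.68, 95% interval 0.44 to 3.45) was the highest among the 6 genes tested and missed the threshold (edgeR adjusted p = 0.0655). It passed with limma-voom (adjusted p = 0.0433, log2 fold change 2.65) and in edgeR without lean 3 (adjusted p = 0.0496, log2 fold change 2.99), and without lean 2 it was 1.41 (edgeR adjusted p = 0.134).

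Ccl17 (ENSMUSG00000031780.2), the other Ccr4 ligand, had 1.88, 0.245 and 0.965 CPM in obese 1, 3 and 4, against 1.78, 1.56 and 1.63 CPM in lean 1, 2 and 3. Lean libraries were nearly equal, whereas obese 3, with 2 counts, was low and obese 1, with 16, was the highest of all 6. Lean counts varied by 0.06 times the Poisson variance, closer together than counting error gives on average. Obese counts varied by 5.37 times that variance. The log2 fold change was -0.67 with a 95% interval of -1.98 to 0.63 (SE 0.59, edgeR adjusted p = 0.444). It was -0.21 without obese 3 and -1.43 without obese 1 (edgeR adjusted p = 0.818 and 0.198).

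Set against each other within a library, Ccl22 made up 63.6%, 90.0% and 71.4% of the counts of both genes in obese 1, 3 and 4, against 25.0%, 0% and 45.8% in lean 1, 2 and 3. Ccl22 counts exceeded Ccl17 counts in each obese library and were below them in each lean library. The exact 95% intervals of obese 1, 47.8% to 77.6%, and lean 3, 25.6% to 67.2%, overlapped. Each of these intervals also held equal counts of both genes. The share averaged 75.0% ± 13.5 in the obese and 23.6% ± 22.9 in the lean group (SD, n = 3 each). It rests on 20 to 44 counts per obese and 11 to 24 per lean library, it is a share of counts and not of molecules, and it was looked at after the values were known and was not tested.

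The receptor Ccr2 (ENSMUSG00000049103.14; chromosome 9, 124101918 to 124109140) is carried mainly by inflammatory monocytes and cells newly derived from them. It had 135, 155 and 67 counts in obese 1, 3 and 4, against 52, 42 and 21 counts in lean 1, 2 and 3. These were 15.8, 19.0 and 8.09 CPM in the obese and 6.17, 5.96 and 2.63 CPM in the lean libraries. The groups did not overlap, but obese 4 stood nearer to lean 1 and 2 than to the other obese libraries. The fitted increase was 2.90-fold (95% interval 1.64 to 5.12), or 1.54 ± 0.37 (SE) in log2 terms (edgeR adjusted p = 0.0174). Counts varied between libraries by 18.1 times the Poisson variance in the obese and 6.41 times in the lean group. The call was lost without obese 1, lean 2 or lean 3, at log2 fold changes of 1.45, 1.69 and 1.23 (edgeR adjusted p = 0.0547, 0.0516 and 0.0577). Without obese 4 the log2 fold change was 1.82 (edgeR adjusted p = 0.0105).

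**Figure D3:**
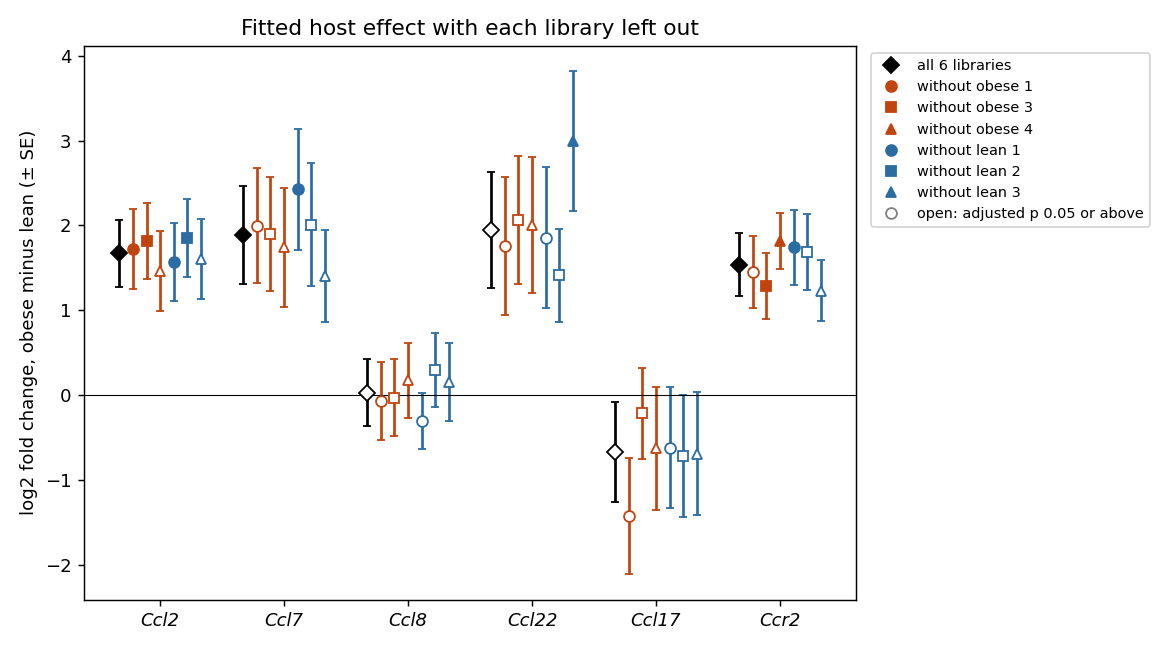
Log2 fold change, obese minus lean, of the 6 genes tested with all 6 libraries (diamonds) and with each library left out; bars are ± 1 SE, and open symbols have an edgeR adjusted p of 0.05 or above. Ccl2, Ccl7, Ccl22 and Ccr2 stayed between 1.23 and 2.99 in every case, Ccl17 stayed below 0, and Ccl8 changed sign.

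Receptor and ligands were not ordered alike within the obese group. Obese 4 had the highest Ccl2 and Ccl7 and the lowest Ccr2 of the obese libraries, while obese 3 had the lowest Ccl2 and the highest Ccr2. For Ccl7 this order is within counting error, at 16, 18 and 22 counts in obese 1, 3 and 4 (0.573 times the Poisson variance). Exact 95% intervals of Ccl2 also overlapped among the obese libraries. Among lean libraries, lean 3 was lowest in both Ccr2 and Ccl7. Over the 6 libraries, log2 CPM of Ccr2 correlated with Ccl2 at a Pearson r of 0.71, with Ccl7 at 0.86, with Ccl11 at 0.81 with Ccl22 at 0.46, with Ccl8 at 0.08 and with Ccl17 at -0.55. The host groups set much of these values. After the group means were subtracted, r with Ccr2 was -0.39 for Ccl2, 0.56 for Ccl7, 0.38 for Ccl11, -0.51 for Ccl22, -0.04 for Ccl8 and -0.22 for Ccl17, values that, on such low counts, describe these 6 libraries and no more. Ccl2 and Ccl7 correlated at 0.85 over the 6 libraries and at 0.26 after subtraction of group means.

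**Figure D4:**
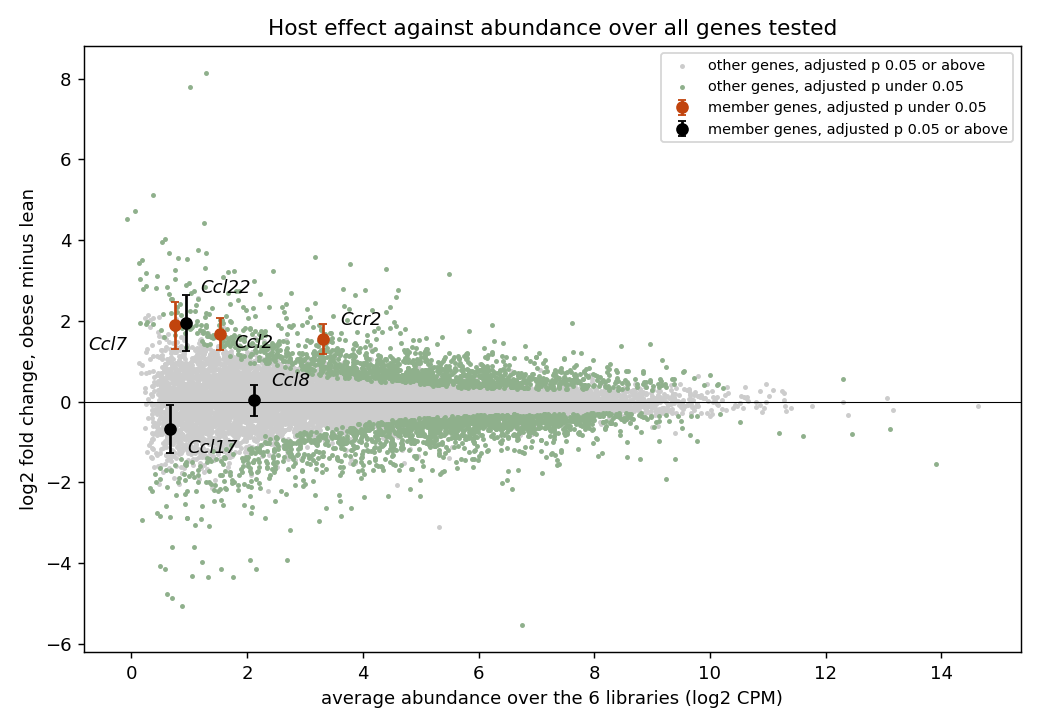
Log2 fold change, obese minus lean, against average abundance in log2 CPM for the 14348 genes tested, with the 6 chemokine and receptor genes marked (bars ± 1 SE). Ccl2, Ccl7, Ccl22 and Ccr2 lie between 1.54 and 1.94 on the vertical axis, where 4.92% of all genes tested exceed 1, and Ccl8 and Ccl17 lie at 0.03 and -0.67.

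Without regard to the test, 4 of the 6 genes tested were higher in each obese library than in any lean one, and 0 were lower in each. Over all genes tested, these patterns were found in 20.3% and 20.0%. Ccl2, Ccl7 and Ccl22 passed the filter only with the obese libraries. Their entry favoured the first pattern, so the all-gene shares are not a matched background. Log2 fold changes above 1 were fitted for the same 4 genes, Ccl2, Ccl7, Ccl22 and Ccr2. Ranked by fitted log2 fold change from the highest, Ccl22 was at position 109, Ccl7 at 122, Ccl2 at 181 and Ccr2 at 225 of the 14348 genes. Ccl22 did not pass the threshold. All of these but Ccr2 lay in the fifth with the lowest abundance, where the median SE was 0.45, against 0.19 over all genes tested.

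The mean of the 5 chemokines tested, each standardized in log2 CPM, was 0.70, 0.07 and 0.42 in obese 1, 3 and 4, against -0.59, -0.28 and -0.31 in lean 1, 2 and 3. Obese 3, where Ccl17 was low, came nearest to the lean libraries. The genes whose log2 CPM followed this mean most closely over the 6 libraries were ENSMUSG00000052698.15 and ENSMUSG00000046753.10, each with a Pearson r of 0.99; 447 of 14342 other genes reached 0.9. ENSMUSG00000046753.10 had a log2 fold change of 0.83 ± 0.21 (SE, edgeR adjusted p = 0.0221), and ENSMUSG00000052698.15 had one of 0.52 ± 0.18 (SE, edgeR adjusted p = 0.0619). The mean itself separated the groups, so genes picked to follow it tend to differ between them. Their fold changes are therefore a description and no separate evidence of a host difference.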

How the data were processed

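Total RNA of whole tumors was extracted with QIAzol and depleted of ribosomal RNA before library preparation, per the labels' protocols. The authors deposited raw counts per gene; CASAVA, STAR, Subread and GRCm38 are named in the submitters' processing notes, with no versions or settings; whether strand was used in counting is not given in the sources used here. If strand was not used, reads of antisense transcripts were counted too. How reads shared by similar chemokine genes were counted is not given either. The table held 15646 versioned Ensembl IDs with a lowest row sum of 11, so scarcer genes were absent from it, and 0 columns were left unmapped.

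Libraries titled OB were taken as obese and those titled ND as lean, following the design text. No label says that libraries came from separate mice, so p-values reflect only how far these samples differ among themselves, some of which may be technical. Symbols of the 7 genes come from the list of IDs that defined the set. The RefSeq table (GRCm38.p6) carries 0 Ensembl IDs, so 11 lists of other genes, fixed by symbol, were not used; genome positions were looked up by symbol.

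The groups were compared in edgeR 4.0.16 (R 4.3.3): default expression filter (minimum count 10, minimum total 15; 1298 genes removed), TMM factors, quasi-likelihood F test, two-sided, no covariates. The SE is the log2 fold change divided by the square root of F. CPM values use effective library sizes. Correlations used log2 CPM with a prior count of 2. Intervals of counts are exact Poisson, those of shares and ratios Clopper-Pearson, all at 95% and for counting error only. For a count of 0, the level of 3 counts is given too, which is below the exact upper limit of 3.69 counts. The test was checked on simulated data. Alternatives were other scaling factors, other filters, DESeq2 1.42.0, limma-voom (limma 3.58.1), robust dispersions, a replicate block and leaving out each library. All analysed members are named, and the 2 genes most like their mean were taken by rule. Members and lists were chosen with earlier results of these data known.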

Additional observations from a re-analysis of the deposited data

How the results depend on the processing

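Directions of Ccl2, Ccl7, Ccl22, Ccr2 and Ccl17 were kept in all 15 alternatives each. Ccl8, near 0, changed sign when single libraries were left out, over a range of -0.31 to 0.30. Leaving out 1 library gave 1 to 3 of these genes called, all higher in obese hosts, and 1179 to 3066 genes called over the whole table, 567 to 1468 higher and 612 to 1598 lower; the cause was not tested. Other scaling factors kept 3 of these genes called, where 20.7% to 21.0% of all genes tested were called. They put the all-gene median log2 fold change at 0.01 to 0.07. DESeq2 and the fit without a filter each called 2 of 7 and limma-voom called 4 of 6, where 19.2%, 18.6% and 21.0% of all genes were called. Title numbers 1 and 3 occur in both groups, but no label ties them, so they were not taken to pair samples. After subtraction of group means, like-numbered libraries correlated at 0.090 and 0.074, both above the unlike numbers, at -0.131 to 0.066. These small values cannot decide whether the numbers pair samples. A fit with the replicate block left obese 4 and lean 2 alone in their blocks. Its host effect thus came from obese 1 and 3 against lean 1 and 3. In that fit, 2087 genes (14.5%) were called, and of these chemokine and receptor genes 1, Ccr2 (edgeR adjusted p = 0.00105). Ccl2 had a log2 fold change of 1.64 (SE 0.59, edgeR adjusted p = 0.0685) and Ccl7 of 1.97 (SE 0.82, edgeR adjusted p = 0.118). Depth limits these results: 5 of the 6 genes tested had at most 42 counts in any library.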
